A study of Homo sapiens with 12 samples.

Results

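The genes described here are 8 genes of cellular lipid supply in triple-negative breast cancer (TNBC) cells: SREBF2, INSIG1, HMGCS1, IDI1, FDFT1, SQLE, DHCR7 and SCD. They were chosen by symbol from 24559 genes, with earlier values of these same libraries in view, and all 8 passed the filter on low counts that left 16538 genes tested. Polysome-associated RNA was sequenced from 3 TNBC cell lines in 6 groups of 2 libraries each. MDA-MB-231 and SUM159 carried either a control vector (EV) or an shRNA plasmid against TRMT112 (KD), both selected with puromycin, and BT549 received a TRMT112 open reading frame (OE) or its empty vector (EV), both selected with G418. The EV control of the KD lines is a non-silencing shRNA plasmid according to the methods, so it also expresses a hairpin. TRMT112 is the activating partner of methyltransferases that modify ribosomal RNA, tRNA and translation factors, and the study asked how its level alters the set of mRNAs on ribosomes. Whether the selected cells were 1 clone or a pool is not given in the sources used here. MDA-MB-231 and SUM159 were grown with 5% serum and BT549 with 10% serum, and only the SUM159 medium held insulin (5 µg/mL) and hydrocortisone (1 µg/mL), so medium and cell line cannot be told apart.

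SREBP2, the product of SREBF2, is a transcription factor made as a membrane protein of the endoplasmic reticulum, where it is held with its escort SCAP. When sterols are low, SCAP carries SREBP2 to the Golgi apparatus, proteases free its DNA-binding part, and that part switches on the enzymes of cholesterol synthesis. When sterols are high, INSIG1 retains SCAP in the endoplasmic reticulum, and INSIG1 itself is a target of the same factor. HMGCS1 and IDI1 act in the mevalonate stretch of the pathway, FDFT1 and SQLE make and oxidise squalene, DHCR7 acts at the last steps to cholesterol, and SCD puts the first double bond into saturated fatty acids. Fast-growing tumor cells need these products for membranes.

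TRMT112 itself was checked first. Its normalized count, scaled to a library of average size, was 4147 and 3938 in MDA-MB-231 EV against 1764 and 1682 in MDA-MB-231 KD. In SUM159 it was 6332 and 6566 against 3909 and 3699, and in BT549 3076 and 3087 in EV against 4286 and 4319 in OE. All 3 pairs of groups stood apart in the labelled direction, with log2 fold changes of -1.23 ± 0.04, -0.76 ± 0.04 and 0.48 ± 0.04 (standard error, SE, n = 2 libraries per group). The libraries held 22954226 to 27434677 expected counts each. Replicate libraries differed by a median of 0.08 to 0.10 log2 units over the genes tested, KD from EV by 0.22 in MDA-MB-231 and 0.43 in SUM159, OE from EV by 0.64 in BT549, and the EV libraries of different lines by 0.73 to 0.92. CDKN2A, which is deleted in MDA-MB-231, was at 0 in all 4 of its libraries, and RB1, lost in BT549, lay between 32.8 and 170 there against 506 to 1023 in the other lines. Of the receptors that define TNBC by their absence or lack of amplification, PGR lay between 0 and 9.97 and ERBB2 between 1385 and 3420, and ESR1 was not among the transcripts used here. Of 5 immune and endothelial markers, CD3E and VWF were not among the transcripts used here, PTPRC, a leucocyte marker, stayed between 0 and 13.8, and PECAM1, an endothelial one, between 0 and 103, highest in SUM159 KD. CD68, a lysosomal protein used as a macrophage marker, was high in 2 of the lines and moved with the BT549 comparison, at 4146 and 4273 in EV and 163 and 166 in OE. It lay between 4277 and 4746 in MDA-MB-231, and between 531 and 697 in SUM159. The mesenchymal marker VIM also differed in BT549, at 47330.4 and 47474 in EV and 17450.5 and 16820.5 in OE, and FN1 differed most in SUM159, at 5345 and 5452 in EV and 15064 and 15247 in KD. The part of these differences in the results was not tested. Nothing in the sources used here says whether replicates were separate cultures, so p-values measure the spread between these libraries, which may be technical. A polysome count moves both with the amount of an mRNA and with its loading by ribosomes, and no unfractionated RNA was measured, so these cannot be told apart. Exons of 4 of the 8 genes share bases with exons of a gene on the opposite strand. The overlap was 2497 bases for HMGCS1, 731 for SREBF2 (with SREBF2-AS1), 643 for IDI1 (with IDI2-AS1) and 217 for FDFT1. It is uncertain whether the counting used strand, so reads of the overlaps cannot be assigned with certainty.

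The stretches of promoter shown here belong to 4 of the members, and they differ in which of the sequence motifs known from SREBP target genes they hold. SREBP factors bind a sterol element of the form TCACNCCAC, next to CCAAT boxes bound by NF-Y and GC boxes (GGGCGG) bound by SP1, and they can also bind the E box CACGTG. RefSeq promoters (GRCh38.p14) of 6 of the 8 genes were at hand, the 2 without an entry being FDFT1 and SQLE. Each stretch runs 5′ to 3′ on the gene's strand from position -180 to -1 before the RefSeq start, and capitals mark every match to these 4 motifs on either strand. The SREBF2 stretch lies at chr22:41832925-41833104 (plus strand), INSIG1 at chr7:155297698-155297877 (plus), HMGCS1 at chr5:43313413-43313592 (minus) and DHCR7 at chr11:71448394-71448573 (minus). These 4 are shown as the regulator, its feedback partner, an early enzyme and a late one. HMGCS1 and DHCR7 have 2 listed promoters each, of which the first is shown, and which start these cells use was not tested. The DHCR7 stretch lies inside the gene span given below, and the INSIG1 and HMGCS1 stretches overlap theirs in part.
SREBF2: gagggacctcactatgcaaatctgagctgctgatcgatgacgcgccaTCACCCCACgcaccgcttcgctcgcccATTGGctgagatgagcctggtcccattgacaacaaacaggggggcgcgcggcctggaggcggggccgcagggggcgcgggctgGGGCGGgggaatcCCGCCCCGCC
INSIG1: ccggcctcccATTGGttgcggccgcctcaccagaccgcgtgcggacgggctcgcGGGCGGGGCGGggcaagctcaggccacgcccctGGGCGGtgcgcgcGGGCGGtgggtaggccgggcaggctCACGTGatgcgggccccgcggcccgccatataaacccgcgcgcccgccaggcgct
HMGCS1: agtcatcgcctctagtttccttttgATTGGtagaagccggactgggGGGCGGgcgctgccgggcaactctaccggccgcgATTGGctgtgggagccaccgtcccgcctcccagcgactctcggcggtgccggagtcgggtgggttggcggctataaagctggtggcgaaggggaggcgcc
DHCR7: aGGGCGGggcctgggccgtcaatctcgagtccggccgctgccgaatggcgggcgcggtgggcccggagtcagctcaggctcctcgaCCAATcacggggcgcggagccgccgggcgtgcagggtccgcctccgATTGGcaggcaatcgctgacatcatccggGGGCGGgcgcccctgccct
In these stretches ATTGG is CCAAT read on the other strand and CCGCCC is GGGCGG read on the other strand, and neighbouring GC boxes can overlap by 1 base.

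Over the whole RefSeq window, CCAAT occurred in 7 and GGGCGG in 9 of the 10 promoters listed for the 6 members with an entry, since HMGCS1, IDI1 and DHCR7 have more than 1. Both are common, present in 34.6% and 45.0% of all 35116 promoters of the same length. The full sterol element TCACNCCAC was found in SREBF2 alone, at -133 to -125 as TCACCCCAC, and in 1.13% of all promoters. CACGTG was found in INSIG1 alone, at -55 to -50, and in 7.26% of all promoters. Among the 14 other cholesterol synthesis enzymes examined below, 13 had an entry, and of their 14 promoters CCAAT was present in 11, GGGCGG in 12, CACGTG in 3 and TCACNCCAC in 0. A match is a run of letters in a window and was not tested for binding.

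The 8 genes did not move as a group. In MDA-MB-231 KD both libraries lay above both EV libraries for SREBF2, INSIG1, HMGCS1, IDI1, FDFT1 and SCD, and below them for DHCR7. In SUM159 KD they lay above for SREBF2, INSIG1 and IDI1, and below for HMGCS1, FDFT1, SQLE, DHCR7 and SCD. In BT549 OE they lay above for HMGCS1 and FDFT1, and below for SREBF2, INSIG1, IDI1, SQLE and SCD. The share of all genes without overlap was not counted. INSIG1 was higher than EV in both KD lines and lower in BT549 OE, whereas FDFT1 was 1.41-fold higher in MDA-MB-231 KD and 2.15-fold lower in SUM159 KD. The edgeR fit called 6 members higher and 0 lower in MDA-MB-231, beside 21.2% and 16.5% of all genes tested. It called 3 higher and 5 lower in SUM159, beside 28.6% and 31.4%, and 1 higher and 5 lower in BT549, beside 35.6% and 35.0%. The median log2 fold change of the members was 0.47, -0.24 and -0.43 in that order, against 0.00, 0.00 and 0.02 over all genes. Since the members were picked with these comparisons known, the counts and folds are descriptions and carry no test.

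**Figure D1:**
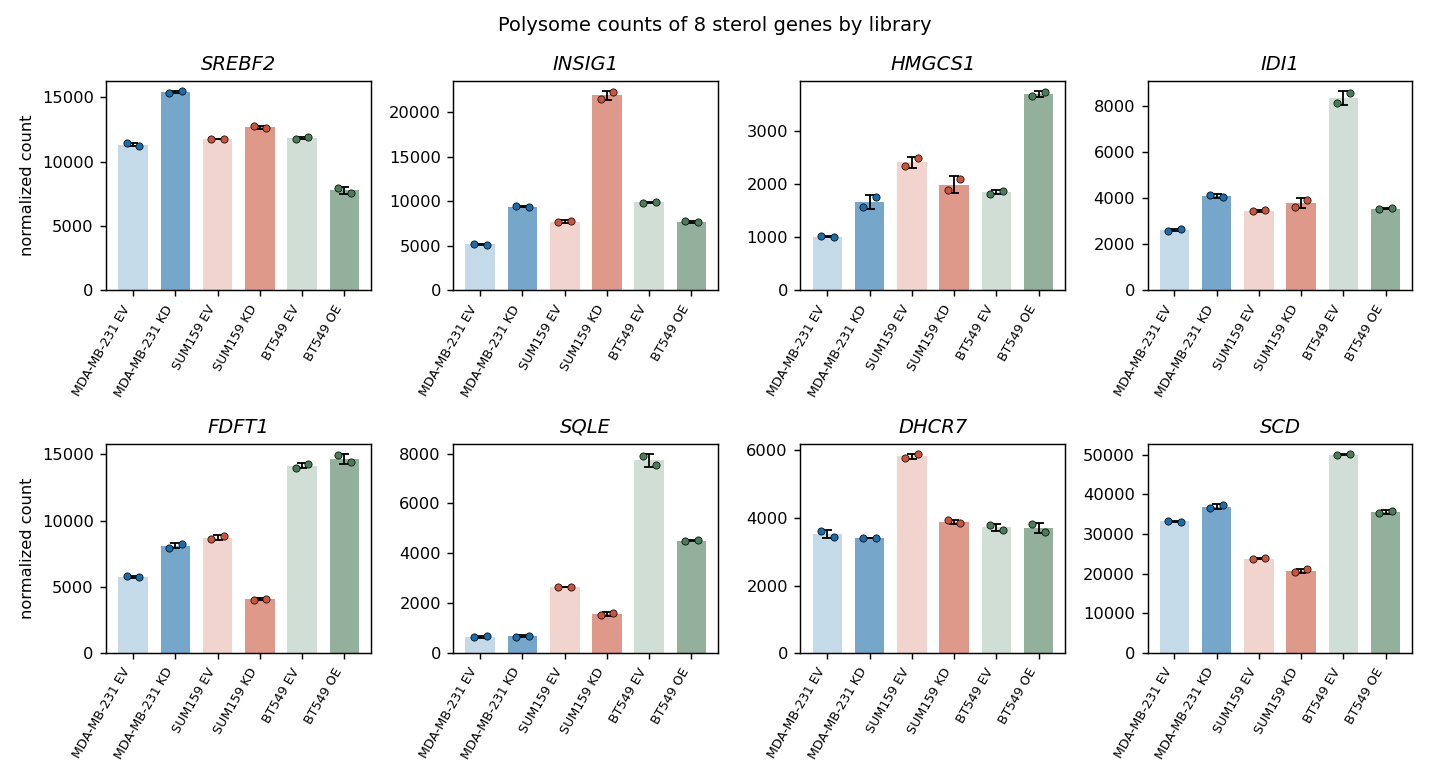
Normalized polysome counts (y axis, linear from 0) of the 8 genes in each of the 6 groups (x axis). Points are libraries, bars are the mean of 2 libraries and whiskers the standard deviation. INSIG1 in SUM159 KD, at 21508 and 22207, stands above every other library for that gene, and FDFT1 in SUM159 KD, at 4012 and 4105, below every other library for its gene.

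SREBF2 (chromosome 22, 41833105 to 41907306, plus strand) encodes SREBP2. Its normalized count was 11410.3 and 11248 in MDA-MB-231 EV and 15331 and 15460.4 in KD, a log2 fold change of 0.44 ± 0.03. The SUM159 libraries gave 11731 and 11765 in EV against 12752 and 12576 in KD (0.11 ± 0.03). Both KD groups lay above their EV groups with no overlap, by 1.36-fold and 1.08-fold. In BT549 the EV libraries held 11781 and 11892 and the OE libraries 7979 and 7558, a log2 fold change of -0.61 ± 0.03, or 1.52-fold lower without overlap. By normalized count the regulator was therefore higher in 2 of 2 KD lines and lower in the OE line. The small SUM159 difference depended on the scale. As TPM, the library-scaled count per unit of transcript length, SUM159 EV held 169.5 and 168.1 and KD 167.1 and 166.9, so KD was lower. Across the 3 EV groups its mean varied by 1.04-fold, the narrowest range of the 8 genes. In the order of group means MDA-MB-231 KD was first, then SUM159 KD, BT549 EV, SUM159 EV, MDA-MB-231 EV and BT549 OE, and neighbouring groups did not overlap in this order, although the 3 EV groups lay close together. At least 98.9% of its counts fell on protein-coding transcripts in every library.

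INSIG1 (chromosome 7, 155297776 to 155310235, plus strand) encodes the retention protein that holds SCAP back. The MDA-MB-231 EV libraries held 5199.5 and 5145 normalized counts and the KD libraries 9407 and 9320.4, a log2 fold change of 0.86 ± 0.03 (1.81-fold). The SUM159 EV libraries held 7614 and 7807 and the KD libraries 21508 and 22207, a log2 fold change of 1.50 ± 0.03 (2.83-fold). Neither pair overlapped, and SUM159 KD was the highest of the 6 groups, followed by BT549 EV and MDA-MB-231 KD. In BT549 the values were 9851 and 9883 in EV and 7732 and 7616 in OE, a log2 fold change of -0.36 ± 0.03. The OE libraries of BT549 lay below its EV libraries, and they overlapped those of SUM159 EV, the one pair of neighbours in the order of INSIG1 levels that did. Its main transcript, INSIG1-201, took 85.6 to 91.8% of the gene's counts. The shorter coding transcript INSIG1-206 took 10.2 and 10.6% in BT549 EV and 6.35 and 6.51% in BT549 OE.

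INSIG1 and 4 of the 5 enzymes of cholesterol synthesis among the members lay on opposite sides of EV in SUM159 KD. There INSIG1 was 2.83-fold above EV while FDFT1, SQLE and DHCR7 were 2.15-fold, 1.69-fold and 1.50-fold below it, and HMGCS1 was below it as well. SREBF2 and IDI1 differed from EV by no more than 1.09-fold in normalized counts of the same libraries, both on the side of INSIG1. On the TPM scale SREBF2 lay below EV there and IDI1 overlapped it. Of the 14 other enzymes of the pathway described below, 8 fell and 5 rose there, EBP 1.74-fold, TM7SF2 1.74-fold and MVD 1.58-fold among them. INSIG2, which encodes the other retention protein, is on one of the lists of pathway genes kept beside the members. It rose in SUM159 KD, from 380.5 and 342 to 548 and 566 normalized counts (log2 fold change 0.63 ± 0.09, adjusted p = 1.20e-06 by edgeR). Its log2 fold change in MDA-MB-231 KD was -0.02 ± 0.09 and did not pass the test, and in BT549 the EV libraries (241 and 246) and OE libraries (243 and 243) overlapped. The difference of the INSIG2 effect between the KD lines was -0.64 ± 0.12, adjusted p = 1.16e-04 (edgeR, MDA-MB-231 minus SUM159).

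HMGCS1 (chromosome 5, 43287470 to 43313512, minus strand) encodes the synthase that makes HMG-CoA, an early intermediate of the pathway. Its normalized count was 1017 and 1003 in MDA-MB-231 EV and 1561 and 1749.6 in KD, a log2 fold change of 0.71 ± 0.06 (1.64-fold). The SUM159 libraries gave 2340.5 and 2483 in EV against 1880.2 and 2103 in KD (-0.27 ± 0.05). The KD libraries were thus above EV in MDA-MB-231 and below EV in SUM159, with no overlap in either line. In BT549 the EV libraries held 1822 and 1871 and the OE libraries 3660.0 and 3734, a log2 fold change of 1.00 ± 0.05. Of the 8 genes it stood furthest above EV in BT549 OE, 2.00-fold. Its exons share 2497 bases with a gene on the opposite strand, and reads there cannot be assigned with certainty. A transcript with a retained intron, HMGCS1-204, took 4.24 and 4.81% of the gene's counts in BT549 EV and 1.85 and 2.27% in OE, while its share in the other 8 libraries ran from 2.63 to 8.73%. In order, BT549 OE was highest, followed by SUM159 EV, SUM159 KD, BT549 EV, MDA-MB-231 KD and MDA-MB-231 EV, and no neighbours overlapped.

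IDI1 (chromosome 10, 1039152 to 1049119, minus strand) encodes the isomerase that balances the isoprenoid building blocks. The MDA-MB-231 libraries held 2584 and 2647 normalized counts in EV and 4151 and 4025 in KD (0.64 ± 0.04 on the log2 scale), and the SUM159 libraries 3428 and 3489 in EV and 3617 and 3918 in KD (0.12 ± 0.04). By normalized count KD was above EV without overlap in both lines, by 1.56-fold and 1.09-fold. As TPM the SUM159 libraries overlapped, at 125.9 and 126.5 in EV and 125.7 and 139.1 in KD. BT549 EV held 8133 and 8547 and OE 3532 and 3549, a log2 fold change of -1.24 ± 0.04. That is 2.36-fold lower, the furthest below EV of the 8 genes in BT549 OE. From high to low the groups were BT549 EV, MDA-MB-231 KD, SUM159 KD, BT549 OE, SUM159 EV and MDA-MB-231 EV, with no overlap of neighbours.

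The IDI1 counts of BT549 EV and OE were also divided differently among transcripts. The coding transcript IDI1-206 took 47.1 and 50.2% of the gene's counts in the EV libraries and 14.9 and 21.7% in the OE libraries. IDI1-201, another coding transcript, took 48.1 and 43.7% in EV and 74.1 and 68.3% in OE. The normalized count of IDI1-206 was 6.27-fold lower in OE and that of IDI1-201 1.52-fold lower, so the lower count of the gene in OE lay mainly in IDI1-206. In MDA-MB-231 the share of IDI1-201 overlapped between EV (44.2 and 40.1%) and KD (37.9 and 42.1%). In SUM159 the same share was 51.1 and 46.6% in EV against 37.3 and 38.2% in KD. There IDI1-206 took 29.4 and 33.4% in EV and 39.1 and 38.2% in KD. IDI1-205, a transcript without a defined coding sequence, took 18.8 and 18.9% in EV and 22.3 and 22.8% in KD. Protein-coding transcripts took 77.1 to 96.2% of the IDI1 counts over all libraries. Counts of single transcripts are estimates by a method not given in the sources used here, with no error attached, so these shares are a description.

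**Figure D2:**
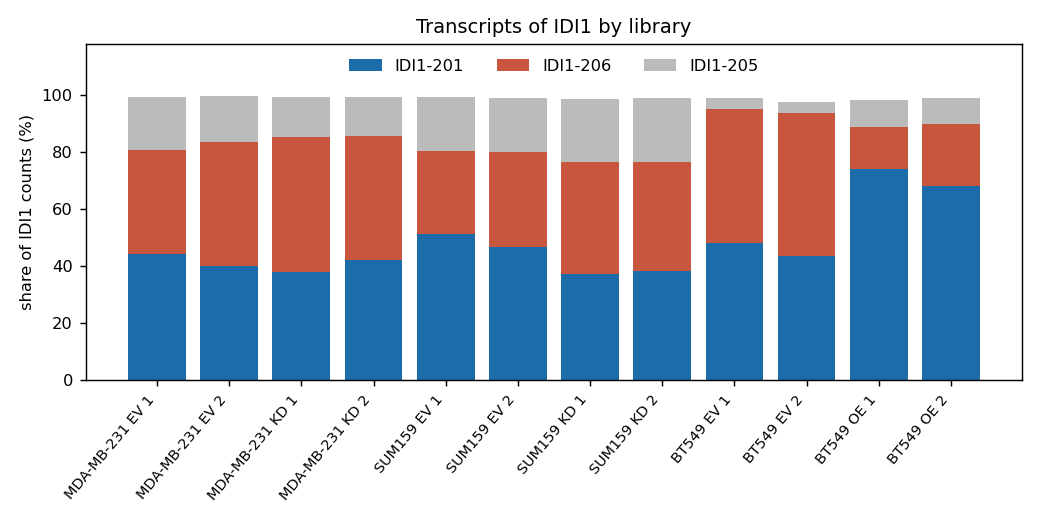
Share of IDI1 expected counts (y axis, percent) on its 3 transcripts above 5% in each of the 12 libraries (x axis). The IDI1-206 part is 47.1 and 50.2% in the BT549 EV libraries and 14.9 and 21.7% in the BT549 OE libraries.

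FDFT1 (chromosome 8, 11795573 to 11839395, plus strand) encodes squalene synthase, the first enzyme committed to sterols. MDA-MB-231 EV held 5821 and 5712 normalized counts and KD 7957 and 8259, a log2 fold change of 0.49 ± 0.03. SUM159 EV held 8587 and 8843 and KD 4012 and 4105, a log2 fold change of -1.10 ± 0.03. The KD libraries lay above EV in the first line and below EV in the second, and no libraries overlapped. In BT549 the values were 13995 and 14275 in EV and 14934 and 14399 in OE (0.05 ± 0.03). Both OE libraries were above both EV libraries there, but the nearest libraries of the 2 groups lay closer together than the 2 EV libraries did. In SUM159 KD FDFT1 stood furthest below EV of the 8 genes, 2.15-fold. From high to low the groups were BT549 OE, BT549 EV, SUM159 EV, MDA-MB-231 KD, MDA-MB-231 EV and SUM159 KD, with no overlap of neighbours. The coding transcript FDFT1-202 took 4.52 and 8.29% of the counts in MDA-MB-231 EV and 13.0 and 9.14% in KD.

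SQLE (chromosome 8, 124998497 to 125022283, plus strand) encodes squalene epoxidase, a rate-limiting step of the pathway. It had the widest range between cell lines. The MDA-MB-231 libraries held 627 and 667 normalized counts in EV and 648 and 702 in KD, which overlapped (log2 fold change 0.06 ± 0.06). SUM159 EV held 2666 and 2657 and KD 1526 and 1626 (-0.75 ± 0.05), and BT549 EV held 7919.6 and 7554 and OE 4498 and 4521 (-0.78 ± 0.04). The treated libraries of SUM159 and BT549 were below EV without overlap, 1.69-fold and 1.72-fold, so SQLE was lower both where TRMT112 was knocked down in SUM159 and where it was overexpressed in BT549. BT549 EV stood 11.97-fold above MDA-MB-231 EV, and from high to low the groups were BT549 EV, BT549 OE, SUM159 EV, SUM159 KD, MDA-MB-231 KD and MDA-MB-231 EV, of which only the last 2 overlapped. All counts fell on protein-coding transcripts.

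DHCR7 (chromosome 11, 71428193 to 71452868, minus strand) encodes the reductase of the final step to cholesterol. Its normalized count was 3612 and 3439 in MDA-MB-231 EV and 3412 and 3407 in KD (-0.05 ± 0.04 on the log2 scale). Both KD libraries were below both EV libraries, but the nearest libraries of the 2 groups lay closer together than the 2 EV libraries did. SUM159 EV held 5771 and 5880.0 and KD 3933 and 3849, a log2 fold change of -0.58 ± 0.04 (1.50-fold lower, no overlap). BT549 EV held 3805 and 3656 and OE 3807 and 3599.6, which overlapped (-0.01 ± 0.04). In the order of levels SUM159 EV stood first and SUM159 KD next, and BT549 EV, BT549 OE and MDA-MB-231 EV then overlapped one with the next, ahead of MDA-MB-231 KD. The gene thus differed clearly in 1 of the 3 lines.

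SCD (chromosome 10, 100347233 to 100364826, plus strand) encodes the desaturase that makes oleate and palmitoleate and is a target of SREBP factors as well. Per unit of transcript length it was the most abundant of the 8 in polysomes of the EV groups. The normalized counts were 33203 and 33138 in MDA-MB-231 EV and 36574 and 37324 in KD (0.16 ± 0.02 on the log2 scale), and 23719.8 and 23958 in SUM159 EV and 20318 and 21128 in KD (-0.20 ± 0.02). KD was 1.11-fold above EV in the first line and 1.15-fold below it in the second, each without overlap. BT549 EV held 49896 and 50194 and OE 35192 and 35847, a log2 fold change of -0.49 ± 0.02 (1.41-fold lower, no overlap). In the order of levels BT549 EV was first and SUM159 KD last, and no neighbours overlapped.

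**Figure D3:**
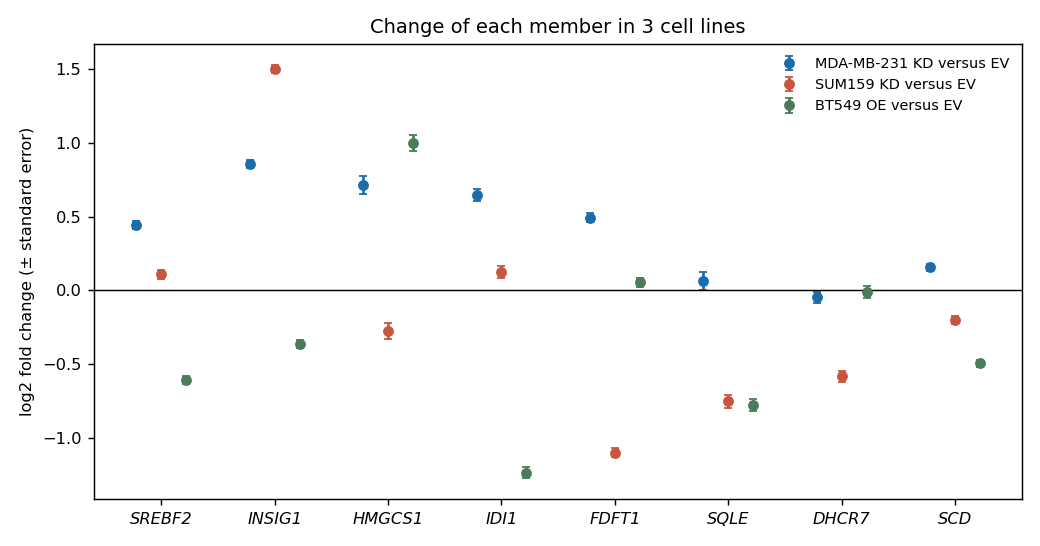
Log2 fold change (y axis) of each of the 8 genes (x axis) in MDA-MB-231 KD, SUM159 KD and BT549 OE, each against EV of the same line. Points are estimates of the edgeR fit and whiskers their SE. INSIG1 has the highest value, 1.50 ± 0.03 in SUM159 KD, and IDI1 the lowest, -1.24 ± 0.04 in BT549 OE.

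Levels can be compared between genes only per length, as TPM, the library-scaled count per unit of transcript length, computed here. SCD ranked first in all 3 EV groups on this scale, with 544 and 544 TPM in MDA-MB-231, 342 and 341 in SUM159 and 621 and 630.0 in BT549. FDFT1 came next, with 253 and 253, 332 and 339 and 469 and 481 TPM in the same order. INSIG1 lay at 184 and 175, 235 and 244 and 277 and 283 TPM. In SUM159 KD the ranks changed, with INSIG1 at 607 and 629 TPM above SCD at 266 and 279.7 TPM. The order at the lower end differed between lines. In MDA-MB-231 EV the lowest was SQLE, at 18.2 and 19.9 TPM, whereas HMGCS1 was lowest in SUM159 EV (57.2 and 59.8 TPM) and BT549 EV (40.8 and 42.8 TPM).

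In the normalized counts of the EV groups, MDA-MB-231 was the lowest line for 7 of the 8 genes and BT549 the highest for 6 of them. The ratio of the highest to the lowest EV mean was 1.04 for SREBF2, 1.65 for DHCR7, 1.91 for INSIG1, 2.10 for SCD, 2.39 for HMGCS1, 2.45 for FDFT1, 3.19 for IDI1 and 11.97 for SQLE. These levels depend on the scale. As TPM the ratio of SREBF2 was 1.26, still the smallest of the 8, but MDA-MB-231 was then its highest line and BT549 its lowest, and MDA-MB-231 was the lowest line for 5 of the 8 genes. The ratio of SQLE was 9.11 on that scale. These ratios are descriptions of 2 libraries per line, and medium and vector differed with the line.

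The 14 other enzymes of cholesterol synthesis described here, from ACAT2 to SC5D, were listed from general knowledge of the pathway, with earlier results of these data known. In MDA-MB-231 KD 12 of 14 rose, 1 fell and 1 did not pass the test (edgeR, adjusted over all 16538 genes). In SUM159 KD 5 rose, 8 fell and 1 did not pass, and in BT549 OE 4 rose and 10 fell. The shares of all genes called higher and lower were 21.2% and 16.5% in MDA-MB-231 KD, 28.6% and 31.4% in SUM159 KD and 35.6% and 35.0% in BT549 OE. The median log2 fold change of the 14 was 0.42 in MDA-MB-231 KD, -0.29 in SUM159 KD and -0.30 in BT549 OE.

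The acetoacetyl-CoA thiolase ACAT2, at the entry of the pathway, rose in MDA-MB-231 KD (log2 fold change 0.69 ± 0.04, adjusted p = 7.46e-12 by edgeR), from 4246 and 4192 to 6884 and 6772 normalized counts. It fell in SUM159 KD (-0.42 ± 0.05, adjusted p = 5.31e-08) and rose in BT549 OE (1.29 ± 0.04, adjusted p = 1.22e-17), the directions seen for HMGCS1, which follows it in the pathway. The kinase MVK rose in both KD lines (0.60 ± 0.05 and 0.15 ± 0.05) and fell in BT549 OE (-0.89 ± 0.06). Its call in SUM159 KD was not held throughout, since it did not pass with EV replicate 1, EV replicate 2 or KD replicate 1 left out. As TPM its SUM159 libraries overlapped, at 76.7 and 75.7 in EV and 79.1 and 75.8 in KD. PMVK, the next kinase, showed a log2 difference of -0.02 ± 0.06 in MDA-MB-231 KD, not called, and rose in SUM159 KD (0.22 ± 0.05) and BT549 OE (0.20 ± 0.05). The decarboxylase MVD rose in MDA-MB-231 KD (0.86 ± 0.04, adjusted p = 8.15e-14) and in SUM159 KD (0.66 ± 0.04, adjusted p = 1.70e-12), and its fall in BT549 OE was -0.11 ± 0.04, not called without EV replicate 2 or OE replicate 2.

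FDPS makes farnesyl diphosphate, the substrate of FDFT1. Its normalized counts were 11327 and 11581 in MDA-MB-231 EV and 15404 and 14845 in KD, 8558 and 8764 in SUM159 EV and 5549 and 5565 in KD, and 16849.8 and 16359 in BT549 EV and 6689.8 and 6523 in OE. FDPS therefore rose in MDA-MB-231 KD (0.40 ± 0.03, adjusted p = 1.48e-10 by edgeR) and fell in SUM159 KD (-0.64 ± 0.03, adjusted p = 1.09e-14) and in BT549 OE (-1.33 ± 0.03, adjusted p = 3.04e-21). The genome holds near-identical pseudogene copies of FDPS and of HSD17B7, so their counts are uncertain to the extent that reads were shared. LSS, which closes the sterol ring, rose in MDA-MB-231 KD (0.49 ± 0.04), was not called in SUM159 KD (-0.05 ± 0.04) and fell in BT549 OE (-0.66 ± 0.04).

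After ring closure, CYP51A1, the lanosterol demethylase, rose in MDA-MB-231 KD (0.29 ± 0.05), fell in SUM159 KD (-0.74 ± 0.05) and rose in BT549 OE (0.39 ± 0.05). The pair of reductases for the next step moved in opposite directions in the KD lines. TM7SF2 fell in MDA-MB-231 KD (-0.57 ± 0.11, adjusted p = 2.11e-04 by edgeR) and rose in SUM159 KD (0.80 ± 0.11, adjusted p = 1.12e-06), at 311 and 327 and 229 and 202 normalized counts in the first line and 212 and 190.0 and 344 and 354 in the second. LBR, which carries the same reaction and also anchors chromatin at the nuclear lamina, rose in MDA-MB-231 KD (0.23 ± 0.04) and fell in SUM159 KD (-0.42 ± 0.05). In BT549 OE both fell, TM7SF2 by 1.22 and LBR by 0.27 on the log2 scale.

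The C4 demethylation enzymes MSMO1, NSDHL and HSD17B7 rose in MDA-MB-231 KD, by 0.61 ± 0.05, 0.27 ± 0.07 and 0.53 ± 0.09 on the log2 scale. All 3 fell in SUM159 KD (-0.21 ± 0.05, -0.38 ± 0.08 and -0.76 ± 0.12) and in BT549 OE (-0.24 ± 0.05, -0.34 ± 0.06 and -0.54 ± 0.11). The isomerase EBP rose in both KD lines (0.45 ± 0.04 and 0.79 ± 0.04) and fell in BT549 OE (-1.16 ± 0.04), the same signs as MVK. The desaturase SC5D rose in MDA-MB-231 KD (0.21 ± 0.06) and BT549 OE (0.63 ± 0.06) and fell in SUM159 KD (-0.71 ± 0.06). NSDHL was not called in MDA-MB-231 without EV replicate 2 or KD replicate 1, nor SC5D without EV replicate 1 or KD replicate 1.

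**Figure D4:**
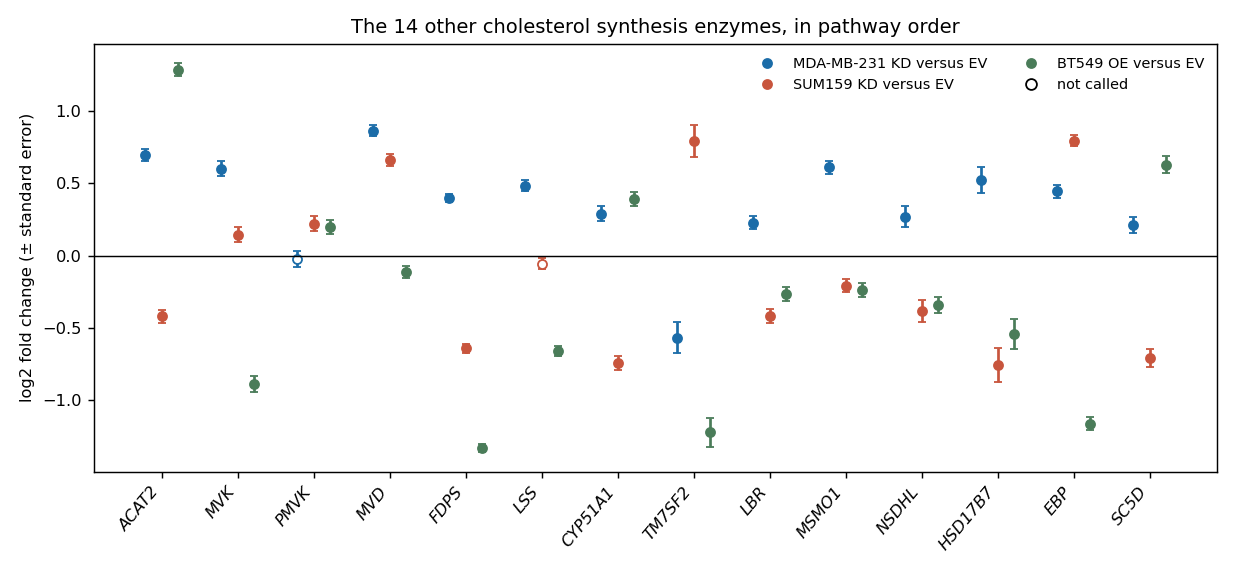
Log2 fold change (y axis) of the 14 other cholesterol synthesis enzymes, in pathway order (x axis), in the 3 comparisons. Whiskers are the SE of the edgeR fit and open points did not pass an adjusted p of 0.05. In MDA-MB-231 KD 12 filled points lie above 0 and 1, TM7SF2, below.

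The effect of KD differed between MDA-MB-231 and SUM159 for 14 of 14 of these enzymes (edgeR test of the difference itself), beside 50.9% of all genes tested. The effect was the higher one in MDA-MB-231 for 11 and in SUM159 for 3, namely PMVK, TM7SF2 and EBP. In 8 of the 14 the gene rose in MDA-MB-231 KD and fell in SUM159 KD, as FDPS did, with a difference of 1.04 ± 0.04, adjusted p = 1.49e-15. The share of all genes with such opposite calls was not counted. The largest positive difference was that of HSD17B7 (1.28 ± 0.15, adjusted p = 1.23e-07), and the most negative that of TM7SF2 (-1.36 ± 0.15, adjusted p = 8.59e-08). In 3 genes, MVK, MVD and EBP, the normalized count rose in both KD lines, although MVK overlapped as TPM in SUM159. Among the 8 members, INSIG1, SREBF2 and IDI1 had higher normalized counts in both KD lines. As TPM, however, SREBF2 was lower in SUM159 KD and IDI1 overlapped there. HMGCS1, FDFT1 and SCD were above EV in MDA-MB-231 KD but below it in SUM159 KD. All of these are given as values without a test.

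**Figure D5:**
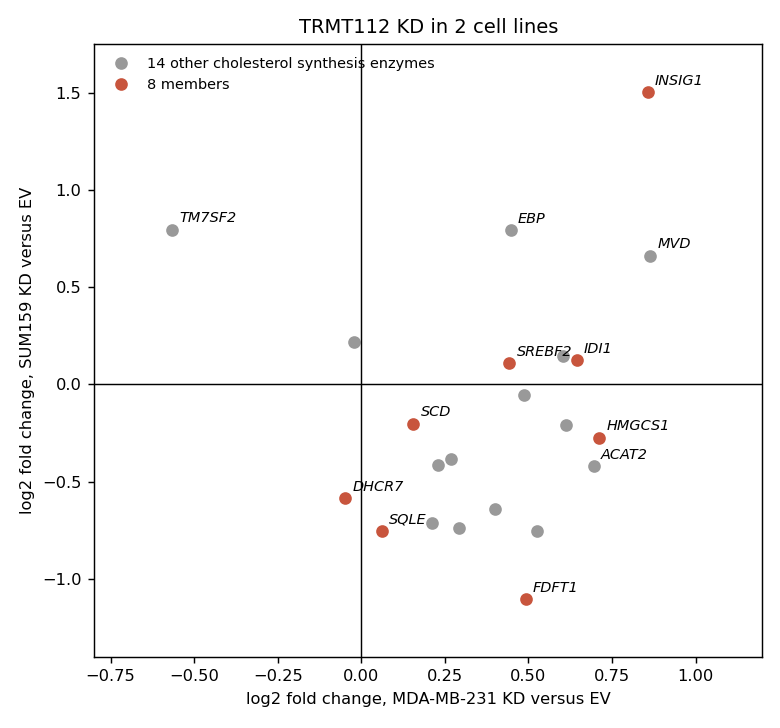
Log2 fold change of KD against EV in MDA-MB-231 (x axis) and in SUM159 (y axis) for the 8 members (red) and the 14 other cholesterol synthesis enzymes (grey). The lower right quadrant holds genes that were higher in KD than in EV in MDA-MB-231 but lower in SUM159, among them FDFT1 at 0.49 and -1.10, and INSIG1 has the highest value on the y axis, at 0.86 and 1.50.

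The machinery that handles SREBP2, together with SREBF1, was described by 8 genes: 3 rose and 1 fell in MDA-MB-231 KD, 3 rose and 2 fell in SUM159 KD, and 2 rose and 3 fell in BT549 OE. Of all genes tested, 21.2% and 16.5%, 28.6% and 31.4%, and 35.6% and 35.0% were called higher and lower in the same order, so counts of this size among 8 genes lie near the background. SCAP, the escort, showed a log2 difference of -0.03 ± 0.04 in MDA-MB-231 KD, not called, and changed little where it was called (-0.12 ± 0.04 in SUM159 KD and 0.12 ± 0.04 in BT549 OE). Its call in SUM159 did not hold in DESeq2 or without EV replicate 1 or KD replicate 2, nor its call in BT549 without EV replicate 1 or OE replicate 1. MBTPS1, the Golgi protease that makes the first cut in SREBP2, rose in SUM159 KD from 5352 and 5340.2 to 9230.4 and 8854 normalized counts (0.76 ± 0.03, adjusted p = 1.32e-15 by edgeR) and in MDA-MB-231 KD (0.18 ± 0.03). MBTPS2, which makes the second cut, fell in SUM159 KD (-0.25 ± 0.08) and rose in MDA-MB-231 KD (0.30 ± 0.09), from 472 and 448 to 632 and 498. SREBF1, which encodes the related factor SREBP1, was not called in MDA-MB-231 KD (-0.04 ± 0.04) or SUM159 KD (-0.07 ± 0.05) and fell in BT549 OE from 2480.0 and 2479 to 1493 and 1458 (-0.75 ± 0.05, adjusted p = 6.92e-13).

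Among the ubiquitin ligases of the endoplasmic reticulum, RNF145 rose in MDA-MB-231 KD (0.33 ± 0.04 on the log2 scale) and fell in BT549 OE (-0.28 ± 0.04). RNF139, at 204 and 169 normalized counts in MDA-MB-231 EV and 154 and 108 in KD, passed there with an adjusted p of 0.0488 by edgeR, and did not pass in DESeq2, with RLE size factors or without EV replicate 1 or KD replicate 2.

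Of 6 genes of sterol uptake and transport, 4 rose in MDA-MB-231 KD, 4 rose and 1 fell in SUM159 KD, and 5 fell in BT549 OE, where 35.0% of all genes fell. In the KD lines 21.2% and 28.6% of all genes rose. NPC1, which exports cholesterol from lysosomes, fell in BT549 OE from 2549 and 2604 to 647 and 560.3 normalized counts (log2 fold change -2.09 ± 0.07, adjusted p = 3.25e-18 by edgeR). STARD4, a cytosolic sterol carrier, fell there from 2697 and 2777 to 579 and 627 (-2.18 ± 0.06, adjusted p = 2.96e-20) and rose in MDA-MB-231 KD (0.47 ± 0.04). NPC2, the soluble partner of NPC1 in the lysosome, rose in SUM159 KD from 2299 and 2522 to 5622 and 5418 (1.19 ± 0.04, adjusted p = 3.60e-17). In BT549 OE it fell, from 10763 and 10478 to 4949 and 4971 (-1.10 ± 0.04).

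The 10 genes of sterol efflux, esterification and the LXR receptors, which sense surplus sterol, were called as follows: 1 rose and 3 fell in MDA-MB-231 KD, 3 rose and 3 fell in SUM159 KD, and 1 rose and 5 fell in BT549 OE. The shares of all genes called higher and lower were 21.2% and 16.5%, 28.6% and 31.4%, and 35.6% and 35.0%, and the counts in SUM159 KD equal that background. APOE, the apolipoprotein that accepts cholesterol outside the cell, fell in SUM159 KD from 2566 and 2689 to 124 and 119 normalized counts (-4.43 ± 0.09, adjusted p = 1.06e-21 by edgeR) and rose in BT549 OE from 67.9 and 69.8 to 640.1 and 577 (3.14 ± 0.12, adjusted p = 4.94e-17). In MDA-MB-231 it lay at 47.0 and 62.1 in EV and 56.2 and 54.9 in KD, which overlapped. The sterol exporter ABCG1 fell in SUM159 KD from 481 and 492 to 35.3 and 32.9 (-3.83 ± 0.23, adjusted p = 1.52e-12), and had at most 4.70 normalized counts in every library of the other lines. ABCA1, the other exporter, rose in SUM159 KD from 84.8 and 85.5 to 181 and 205 (1.18 ± 0.18, adjusted p = 3.01e-06). SOAT1, which esterifies cholesterol for storage, fell in BT549 OE (-1.45 ± 0.06, adjusted p = 1.17e-15) and in SUM159 KD (-1.12 ± 0.08, adjusted p = 3.40e-11). NR1H2, one of the LXR receptors, and MYLIP, a ubiquitin ligase induced by LXR, fell in MDA-MB-231 KD (-0.19 ± 0.04 and -0.34 ± 0.13), MYLIP without a call when any of EV replicate 1, EV replicate 2 or KD replicate 2 was left out. In BT549 OE MYLIP fell further (-1.66 ± 0.13, adjusted p = 6.54e-11 by edgeR). The phospholipid acyltransferase LPCAT3 rose in MDA-MB-231 KD (0.61 ± 0.05, adjusted p = 4.27e-10) and less in SUM159 KD (0.12 ± 0.04, not called without EV replicate 1 or KD replicate 1). As TPM the SUM159 libraries of LPCAT3 overlapped, at 82.1 and 83.6 in EV and 82.7 and 84.5 in KD. SMPDL3A, an LXR target, fell in BT549 OE from 258 and 264 to 3.32 and 6.79 (-5.66 ± 0.30, adjusted p = 3.29e-14).

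Fatty acid synthesis, the branch to which SCD belongs, was described by 13 other genes. In MDA-MB-231 KD 8 rose and 1 fell, in SUM159 KD 4 rose and 9 fell, and in BT549 OE 10 fell, beside 21.2% and 16.5%, 28.6% and 31.4%, and 35.0% of all genes. ACLY, which makes the cytosolic acetyl-CoA both branches use, rose in MDA-MB-231 KD (0.24 ± 0.04, adjusted p = 1.01e-05 by edgeR) and fell in SUM159 KD (-0.49 ± 0.04, adjusted p = 4.57e-11) and BT549 OE (-0.47 ± 0.04, adjusted p = 2.94e-10). FASN, the fatty acid synthase, held 7749 and 7401 normalized counts in MDA-MB-231 EV and 9735 and 9708 in KD, 7086 and 7052 in SUM159 EV and 6561 and 6161 in KD, and 5235 and 4933 in BT549 EV and 3469.5 and 3345 in OE. It rose in MDA-MB-231 KD (0.36 ± 0.03) and fell in SUM159 KD (-0.15 ± 0.04) and in BT549 OE (-0.58 ± 0.04), the signs that SCD showed. SCD5, the other desaturase gene, fell in SUM159 KD from 194 and 229 to 80.7 and 77.0 (-1.43 ± 0.13, adjusted p = 1.09e-09 by edgeR). In BT549 OE it fell further, from 1087 and 1083 to 176 and 194 (-2.55 ± 0.09, adjusted p = 1.15e-17). The elongase ELOVL6 fell in BT549 OE from 3057 and 3268 to 575 and 576 (-2.46 ± 0.05, adjusted p = 1.57e-21). It rose in both KD lines (0.51 ± 0.04 in MDA-MB-231 and 0.20 ± 0.04 in SUM159). The desaturases FADS1 and FADS2 rose in both KD lines and fell in BT549 OE, FADS2 by 1.29 on the log2 scale. ACSL3, which activates fatty acids, was the 1 gene that fell in MDA-MB-231 KD (-0.18 ± 0.07), a call that was lost without EV replicate 2 or either KD replicate. The KD effect differed between the lines for 10 of the 13 genes, beside 50.9% of all genes tested. Each of the 10 was higher in MDA-MB-231, among them ACLY (0.73 ± 0.05) and FASN (0.51 ± 0.05).

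Over all 51 pathway genes described outside the 8 members, 28 rose and 6 fell in MDA-MB-231 KD, 19 rose and 23 fell in SUM159 KD, and 7 rose and 33 fell in BT549 OE. Of all genes tested, 21.2% rose and 16.5% fell in MDA-MB-231 KD, 28.6% and 31.4% in SUM159 KD, and 35.6% and 35.0% in BT549 OE. Their median log2 fold changes were 0.21, -0.06 and -0.34. The count of 6 was not stable: it was 3 without MDA-MB-231 EV replicate 1, 2 without MDA-MB-231 KD replicate 2, 2 in DESeq2 and 3 with RLE size factors.

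The genes whose pattern was most like that of INSIG1 were found among 12589 genes that averaged 50 counts or more, as Pearson's r over the 12 libraries of log2 CPM (library-scaled counts), less the mean of each cell line. They were COPZ1 (r = 0.996), DEF8 (0.993), ING4 (0.993), AHNAK2 (0.992) and PSMD8 (0.991), and 102 genes exceeded 0.95. AHNAK2 had log2 fold changes of 0.65 in MDA-MB-231 KD, 1.25 in SUM159 KD and -0.40 in BT549 OE, close to the 0.86, 1.50 and -0.36 of INSIG1. None of the other 7 members came near these values: their r with INSIG1 ran from -0.87 for DHCR7 to 0.57 for SREBF2. For the mean of the 5 enzymes HMGCS1, IDI1, FDFT1, SQLE and DHCR7 the most alike were TGM2 (0.990), NR3C1 (0.987), DUSP14 (0.986), TRIM16 (0.986) and PALM2AKAP2 (0.986), and 45 genes exceeded 0.95. INSIG1 had an r of -0.33 with that mean, SREBF2 0.44 and SCD 0.70. Replicates lie close together, so the 12 libraries amount to 3 differences between groups, and high values of r are common. They describe likeness only.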

How the data were processed

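Polysome-associated RNA of 3 TNBC cell lines was sequenced in 12 libraries, grouped by their labels. Reads were trimmed (Trimmomatic), placed on GRCh38 (HISAT2) and freed of duplicates (SAMtools) by the authors. Expected counts of each Ensembl transcript were deposited, unnormalized (3.10% of values above 0 are whole), although the methods name RPKM. The 8 MDA-MB-231 and SUM159 columns have the unit other, since the authors left a mark in place of a number in 5.08% of rows, counted here as 0. No transcript of the 8 members was marked. The counting tool and annotation are not given in the sources used here. The labels name a poly(A) kit without strand marking and the methods a stranded kit after rRNA depletion, so strand use is uncertain. The table lists no transcript at 0 in all 4 BT549 libraries.

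Transcripts were matched to GENCODE 44 without version numbers (79.6% of them, 99.2 to 99.4% of counts), summed per symbol and rounded. After filterByExpr and TMM scaling, 1 edgeR 4.0.16 quasi-likelihood model (R 4.3.3) with a mean for each of the 6 groups left 6 residual degrees of freedom (common dispersion 0.000835), and genes were called at an adjusted p under 0.05 (Benjamini-Hochberg over 16538 genes). The SE is the log2 fold change divided by the square root of its F. Normalized counts are counts scaled to the mean effective library size. TPM was computed from counts and transcript lengths. The code was tested on simulated data, where the share of false calls in BT549 exceeded the nominal level, so calls near the threshold are less certain. Python 3.11.15 with pandas 2.3.3 and numpy 2.4.6 prepared the tables and matplotlib 3.10.9 drew the figures.

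The members, the 5 lists of other pathway genes (51 genes) and the tests were chosen with earlier results of these data known. Some genes of these lists are not reported here and enter no count of the lists. Named were TRMT112, the members, the 14 enzymes, INSIG2, SCAP, SREBF1, ACLY and FASN, from each other list up to 2 called genes with the smallest p in each direction and comparison, and the 5 most alike genes. A gene named for 1 comparison can also be called in another. HMGCS1-204, INSIG1-206, FDFT1-202 and the IDI1 transcripts were chosen after their values were seen, as were other genes named from the lists. The alternatives tried were DESeq2 1.42.0, RLE size factors, scaling by library size only, filters of none or 50 counts on average, each line fitted alone, a replicate block, marked transcripts left out, counts rounded down per transcript, and each library left out. At 22954226 to 27434677 counts per library, a count of 0 allows up to 3 counts, for counting error only.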

Additional observations from a re-analysis of the deposited data

Results flagged for a closer look

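The effect of TRMT112 KD differed between MDA-MB-231 and SUM159 in edgeR's test of the difference itself for part of the 51 pathway genes, 29 with the higher effect in MDA-MB-231 and 10 with the higher effect in SUM159, and 12 did not pass, SCAP (adjusted p = 0.173) and SREBF1 (0.689) among them. The values for the enzymes and a few regulators that passed are given here as the log2 effect in MDA-MB-231 minus that in SUM159. In the mevalonate stretch it was 1.11 for ACAT2, 0.46 for MVK, -0.24 for PMVK, 0.20 for MVD and 1.04 for FDPS. In the sterol stretch it was 0.54 for LSS, 1.03 for CYP51A1, -1.36 for TM7SF2, 0.64 for LBR, 0.82 for MSMO1, 0.65 for NSDHL and 1.28 for HSD17B7. At the last steps it was -0.35 for EBP and 0.92 for SC5D. It was -0.64 for INSIG2, on the side opposite to most enzymes, and 0.73 for ACLY and 0.51 for FASN. Such a difference was called for 50.9% of all genes tested.

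Of the 8 members, 3 had both KD libraries on one side of EV in MDA-MB-231 and on the other side in SUM159. The share of all genes that lay so was not counted, so nothing is read from this number. HMGCS1 had log2 fold changes of 0.71 and -0.27, FDFT1 of 0.49 and -1.10, and SCD of 0.16 and -0.20. The difference was not tested for these genes, because they were picked with it known.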

How the results depend on the processing

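Each result was recomputed under 21 alternatives. For the counts of called pathway genes and for TRMT112, 190 values with a library left out and 142 others stayed on the same side of the threshold or, as counts, within 1.5 times, and 2 of each kind did not. All 4 concern the pathway genes that fell in MDA-MB-231 KD, 6 as reported. That count was 2 under DESeq2 and 3 with RLE size factors, and ran from 2 to 6 with 1 library left out, 3 without MDA-MB-231 EV replicate 1 and 2 without MDA-MB-231 KD replicate 2, and the cause was not tested. No result reversed. Of single pathway genes, calls were lost in 41 values with a library left out and in 18 others. Among them were calls of MVK, SCAP and LPCAT3 in SUM159 KD, MVD and SCAP in BT549 OE, and NSDHL, SC5D, RNF139, MYLIP and ACSL3 in MDA-MB-231 KD. Scaling by library size alone moved the median of all genes by at most -0.08, and no member with a difference beyond its spread changed sign. SQLE in MDA-MB-231, at -0.03 to 0.12, and DHCR7 in BT549, at -0.06 to 0.02, did change sign. Under settings other than leaving a library out, 30 member values moved by at least the spread between their replicates. The log2 fold change of INSIG1 ran from 0.77 to 0.88 in MDA-MB-231, 1.47 to 1.56 in SUM159 and -0.38 to -0.34 in BT549, and that of FDFT1 from 0.40 to 0.52, -1.14 to -1.05 and 0.02 to 0.08. Replicates with the same number did not deviate together (correlations of 0.02, -0.02 and 0.00). Whether they shared a culture or a run cannot be told from this, since replicate differences also hold counting error. With a replicate block that count of 6 became 4, MYLIP and ACSL3 losing their calls, and the other counts did not change. Depth was not varied. Precision was lower at low counts, and of the members SQLE in MDA-MB-231, at 666 to 730 counts per library, had an SE of 0.06 against 0.03 for SREBF2.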
